A study of Mus musculus with 8 samples.

Results

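The genes described here are 9 regulators of drug metabolism and lipid handling in liver: the nuclear receptor genes Nr1i2, Nr1i3, Rxra, Nr1h3, Nr5a2, Nr2f2 and Esr1, the ligand-activated transcription factor gene Ahr, and Por, which encodes the electron donor of the microsomal cytochromes P450. They were taken by name, as every probe whose symbol or Entrez ID belonged to 1 of them, which gave 19 of the 56605 gene probes on the array and 9 of the 16495 genes tested. The livers came from female NFS/sld mice, which after neonatal thymectomy serve as a mouse model of primary Sjögren's syndrome, a disease in which the immune system attacks tear and saliva glands. In the Tx group the thymus had been removed on day 3 after birth and the liver was taken 8 weeks after the operation (4 arrays). The nonTx group consisted of mice of the same strain and sex with the thymus in place (4 arrays), and neither their age nor any sham surgery is stated. Replicates are described as independent, but not as 1 mouse each, and p-values therefore reflect only the variation among these samples, which may be technical. The comparison asks whether liver gene expression differs between these groups.

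Nuclear receptors are transcription factors that change activity when a small lipophilic molecule binds them, and the liver uses several of them as chemical sensors. The pregnane X receptor PXR (Nr1i2) and the constitutive androstane receptor CAR (Nr1i3) sense drugs, steroids and bile acids and switch on cytochrome P450, conjugation and transporter genes, each as a heterodimer with the retinoid X receptor RXRA. The aryl hydrocarbon receptor AHR is not a nuclear receptor but a basic helix-loop-helix protein that does the same for planar aromatic compounds with its partner ARNT. Every microsomal P450 depends on the reductase POR for its electrons.

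Correlations between arrays ran from 0.977 to 0.994. The share of probes well above background was 55.5%, 52.5%, 52.1% and 51.1% in Tx and 54.2%, 57.1%, 56.6% and 55.6% in nonTx replicates 1 to 4, so Tx replicates 2 to 4 lay below every nonTx array. The signal at the 75th percentile, to which each array was scaled, lay between 225 and 330 in Tx and between 274 and 302 in nonTx arrays, again with Tx replicates 2 to 4 below every nonTx array. The part of this in the results was not tested. All 8 arrays sat on 1 slide and were scanned together, with the Tx arrays in row 2 and the nonTx arrays in row 1, so the row of the slide and the group cannot be told apart. After scaling, 10 of 10 spike-in RNAs were higher in Tx, by 0.06 to 0.37 on the log2 scale. The dimmest of them, E1A_r60_3 and E1A_r60_a104, stood at -6.23 and -5.88 in Tx and -6.44 and -6.16 in nonTx, relative to the 75th percentile. Values that low may reflect background more than RNA. Of the 9 genes described here, 7 were higher by 0.05 to 0.41. Among those 7, Rxra and Nr5a2 were lower in Tx with quantile normalization. The part of the scaling in the spike-in and gene values was not tested. The liver identity of the samples was checked with 10 hepatocyte genes, among them those of albumin, transthyretin and HNF4A. All 10 were measured, with a summed scaled signal of 3695 to 4149 in Tx and 3787 to 4190.1 in nonTx arrays. Of these genes 6 were higher and 4 lower in Tx, with a median difference of 0.02. In 1 of them the Tx arrays lay wholly below the nonTx arrays, as in 2.95% of all tested genes. As these are bulk samples, fewer cells of a type and less RNA per cell cannot be told apart.

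RefSeq promoters (GRCm38.p6, from 250 bases before to 50 bases after a transcription start) were available for 8 of the 9 genes. Those of Por, Esr1 and Nr2f2 are shown because the levels of these 3 genes were positively correlated over the 8 arrays, and that of Nr1i2 because it varied most among the Tx arrays. They lie at chr5:135688895-135689194 on the plus strand for Por, chr10:4611739-4612038 on the plus strand for Esr1 (the first of the starts listed), chr7:70366697-70366996 on the minus strand for Nr2f2 and chr16:38294775-38295074 on the minus strand for Nr1i2. Capitals mark matches on either strand, none of them overlapping, to the receptor core AGGTCA, the AHR response element core GCGTG, the E-box CACGTG, the CCAAT box, the GC box GGGCGG and the TATA box TATAAA.
Por: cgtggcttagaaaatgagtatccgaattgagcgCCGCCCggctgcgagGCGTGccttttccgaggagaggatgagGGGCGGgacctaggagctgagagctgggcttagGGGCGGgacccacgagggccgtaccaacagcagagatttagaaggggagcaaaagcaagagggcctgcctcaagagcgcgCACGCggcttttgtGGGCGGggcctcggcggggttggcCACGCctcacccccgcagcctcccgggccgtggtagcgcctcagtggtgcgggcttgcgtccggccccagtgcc
Esr1: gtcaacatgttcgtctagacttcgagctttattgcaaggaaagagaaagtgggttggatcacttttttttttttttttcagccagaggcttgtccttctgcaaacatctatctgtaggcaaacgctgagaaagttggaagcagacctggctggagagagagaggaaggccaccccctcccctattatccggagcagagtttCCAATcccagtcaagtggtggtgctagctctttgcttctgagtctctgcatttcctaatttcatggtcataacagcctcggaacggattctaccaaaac
Nr2f2: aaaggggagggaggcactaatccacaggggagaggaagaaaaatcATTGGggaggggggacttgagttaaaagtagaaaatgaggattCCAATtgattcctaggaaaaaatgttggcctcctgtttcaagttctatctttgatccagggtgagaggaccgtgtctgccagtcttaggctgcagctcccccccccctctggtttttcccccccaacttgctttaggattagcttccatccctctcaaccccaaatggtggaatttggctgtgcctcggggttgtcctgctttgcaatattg
Nr1i2: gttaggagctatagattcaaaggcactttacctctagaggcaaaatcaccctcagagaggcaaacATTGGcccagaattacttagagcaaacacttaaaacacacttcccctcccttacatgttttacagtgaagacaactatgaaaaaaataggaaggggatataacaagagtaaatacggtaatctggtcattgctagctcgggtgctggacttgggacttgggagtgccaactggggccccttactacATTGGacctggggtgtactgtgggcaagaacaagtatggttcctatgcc
The Por window held 3 copies of GCGTG and 4 of GGGCGG. Of the 32851 promoters in the table, 32.4% held GCGTG and 35.7% held GGGCGG. The Nr2f2 and Nr1i2 windows held 2 CCAAT matches each and the Esr1 window 1, a motif found in 37.4% of all promoters. The receptor core AGGTCA, in 16.3% of promoters, was in none of the 4 windows, nor were CACGTG (7.15%) or TATAAA (13.6%). Windows not shown did hold them: AGGTCA in Rxra and Nr5a2, TATAAA in Nr5a2 and CACGTG in Nr1i3. Such matches describe letters and not binding.

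None of the 9 genes passed the threshold between Tx and nonTx livers. By limma, 0 of 9 had an adjusted p under 0.05, as had 0% of all 16495 genes and 0 of 30955 probes. Without adjustment 1 of the 9, Nr2f2, had a p under 0.05, against 13.9% of all genes. By direction, 7 of the 9 were higher and 2 lower in Tx. The sign turned with the processing for Rxra and Nr5a2 among the higher and for the lower ones, Nr1i3 and Ahr. The median of the 9 log2 differences was 0.15 (0.00 with quantile normalization). Of all tested genes, 56.3% were higher and the median difference was 0.03. The largest of the 9 differences was that of Nr1i2 at 0.41 and the smallest in size that of Rxra at 0.05. The plot of all tested probes shows these differences with their intervals.

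**Figure D1:**
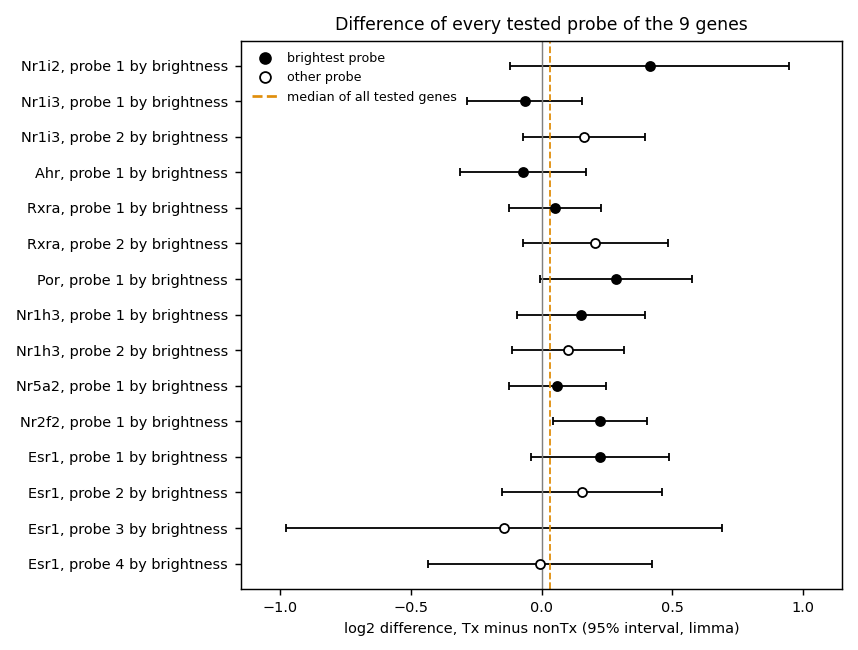
Log2 difference of Tx minus nonTx (x axis) for the 15 tested probes of the 9 genes (rows, ordered by gene and then by brightness), with 95% limma intervals over 4 arrays a group; filled points are the brightest probe of a gene and the dashed line is the median of all tested genes, 0.03. The interval of Nr2f2 is the only 1 that leaves out 0, before any adjustment.

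Nr1i2, the PXR gene, had the widest spread. Given as a multiple of each array's 75th percentile, here called the scaled signal, it stood at 15.1, 12.3, 5.85 and 10.9 in Tx replicates 1 to 4, against 7.55, 8.41, 7.6 and 7.78 in nonTx replicates 1 to 4. Of the Tx livers 3 lay above every nonTx liver and 1, replicate 3, below all of them, while the nonTx livers lay close together. The mean was 1.33-fold higher in Tx (log2 difference 0.41 ± 0.24, SE, 95% interval 0.92-fold to 1.93-fold). The difference did not pass the test (limma adjusted p = 0.456, exact permutation p = 0.20). The log2 difference was 0.24 without Tx replicate 1 and 0.69 without Tx replicate 3. The standard deviation of its log2 level was 0.59 in Tx and 0.07 in nonTx livers. This 8.24-fold ratio was reached or passed by 1.61% of all tested genes, whose median ratio was 1.41.

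Nr1i3, the CAR gene, gave different directions on its probes. The brighter probe, for transcript variant 1 per the file's description, read 7.70, 9.82, 7.83 and 9.07 in Tx and 9.61, 8.41, 8.75 and 9.08 in nonTx livers, giving a log2 difference of -0.06 ± 0.10 (SE; limma adjusted p = 0.779). The dimmer probe, for transcript variant 2, read 1.63, 2.06, 2.03 and 2.09 in Tx and 1.78, 1.68, 1.87 and 1.62 in nonTx livers. Its difference was 0.16 ± 0.11, with 3 Tx livers above every nonTx liver. On both probes the groups overlapped and neither passed the test, so no direction is given for Nr1i3. Its 95% interval ran from 0.82-fold to 1.11-fold on the brighter probe.

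Ahr had scaled signals of 9.59, 9.03, 8.59 and 8.63 in Tx and 8.49, 8.80, 9.01 and 11.6 in nonTx livers. All Tx values fell inside the nonTx range, whose upper end was set by nonTx replicate 4. The log2 difference was -0.07 ± 0.11 (SE; limma adjusted p = 0.778) with a 95% interval of 0.81-fold to 1.12-fold. Its sign turned without nonTx replicate 4, to 0.0302, and with scaling to the median, to 0.0297, so no direction is given for Ahr. A further Ahr probe exceeded background clearly on 1 array, a Tx one, and was not tested.

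Rxra, whose product pairs with PXR, CAR and LXR, was the steadiest of the 9 genes among Tx livers. The brighter probe read 173, 174, 175 and 171 in Tx and 187, 156, 160.3 and 167 in nonTx livers, so all Tx values lay within the nonTx range. Its standard deviation on the log2 scale was 0.01 in Tx and 0.12 in nonTx, and 99.98% of all tested genes had a Tx standard deviation at least as large. The log2 difference was 0.05 ± 0.08 (SE; limma adjusted p = 0.783; 95% interval 0.92-fold to 1.17-fold). The dimmer probe of the same transcript was not as even, at 0.760, 1.0, 1.11 and 0.987 in Tx and 0.813, 0.806, 0.813 and 0.885 in nonTx livers. There the Tx standard deviation was 0.23 and the log2 difference 0.21 ± 0.12, with 3 Tx livers above and 1 below all nonTx livers. The evenness of Rxra in Tx was thus not seen on its dimmer probe. On the brighter probe the sign turned with normexp, quantile normalization and scaling to bright probes, so no direction is given for Rxra.

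Por, the reductase gene, was high in a single Tx liver. It stood at 100.01, 70.3, 71.7 and 73.3 in Tx and at 62.4, 56.0, 64.8 and 74.0 in nonTx livers, and Tx replicate 1 was 1.39-fold above the mean of the other Tx livers. The mean was 1.22-fold higher in Tx (log2 difference 0.29 ± 0.13, SE; 95% interval 0.996-fold to 1.49-fold; limma adjusted p = 0.384; exact permutation p = 0.114). Without Tx replicate 1 the mean was 1.12-fold higher, a log2 difference of 0.17. With all arrays the difference was 0.113 with quantile normalization and 0.166 with scaling to bright probes.

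The lipid and bile acid receptors showed small differences. Nr1h3 encodes LXR alpha, which senses oxysterols and drives sterol export and fatty acid synthesis. Its brighter probe read 40.7, 50.5, 53.8 and 58.4 in Tx and 46.5, 43.6, 45.2 and 46.4 in nonTx livers. Tx replicate 1 lay below and the other 3 Tx livers above every nonTx liver, and the second probe gave the same split, at 22.6, 27.3, 29.2 and 29.1 in Tx against 25.4, 24.0, 24.6 and 26.4 in nonTx. The log2 differences were 0.15 ± 0.11 and 0.10 ± 0.10 (SE; limma adjusted p = 0.531 and 0.637). Without Tx replicate 1 the difference of the brighter probe was 0.25, a 1.19-fold higher level, and without Tx replicate 4 it was 0.08. With all arrays that probe differed by 0.00099 with quantile normalization, 0.032 with scaling to bright probes and 0.083 with normexp. Nr5a2 encodes LRH-1, a regulator of bile acid synthesis genes, and read 9.82, 9.40, 9.46 and 11.0 in Tx and 10.2, 8.98, 9.52 and 9.26 in nonTx livers, a difference of 0.06 ± 0.08 (limma adjusted p = 0.758; 95% interval 0.92-fold to 1.19-fold). Its sign turned with quantile normalization, to -0.028, and with scaling to bright probes, to -0.060, so no direction is given for Nr5a2.

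Esr1, the oestrogen receptor alpha gene, was covered by 7 probes, 4 of which were tested. The brightest, for transcript variant 3, read 7.04, 5.84, 6.0 and 6.88 in Tx and 5.39, 5.21, 4.82 and 6.75 in nonTx livers. All Tx values were above those of nonTx replicates 1 to 3, whereas nonTx replicate 4 lay among the Tx values. The log2 difference was 0.22 ± 0.12 (SE; 1.17-fold; limma adjusted p = 0.424; exact permutation p = 0.143). The second probe, for variant 1, read 3.10, 2.15, 1.93 and 2.19 in Tx and 2.06, 1.99, 2.04 and 2.19 in nonTx livers, and its difference of 0.16 ± 0.14 shrank to 0.01 without Tx replicate 1. The third, for a transcript given by Ensembl ID only, read 2.66, 1.36, 0.735 and 0.810 in Tx and 0.991, 1.24, 1.34 and 1.94 in nonTx livers. On it Tx replicate 1 was 2.86-fold above the mean of the other Tx livers, and the difference was -0.14 ± 0.37, or -0.52 without that array. The fourth, for variant 4, differed by -0.00 ± 0.19. The tested probes thus ranged from -0.14 to 0.22, with 0.06 for their mean, and nonTx replicate 4 or Tx replicate 1 was the highest array on each. Of the other 3 probes, 1 was well above background on none of the 8 arrays.

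Nr2f2 encodes COUP-TFII, an orphan receptor known from venous endothelium and mesenchyme and also present in hepatocytes. It was the only 1 of the 9 whose groups did not overlap. Scaled signals were 3.83, 3.40, 3.97 and 3.60 in Tx and 3.11, 3.14, 3.16 and 3.23 in nonTx livers. A separation with Tx above was shown by 5.11% of all tested genes, with Tx below by 2.95% and with either by 8.06%. The log2 difference was 0.22 ± 0.08 (SE; 1.17-fold; 95% interval 1.03-fold to 1.32-fold). It had an unadjusted limma p of 0.0197 and an adjusted p of 0.327, and did not pass; the exact permutation p was 0.0286, the smallest that 4 against 4 arrays can give. The nonTx livers were close together, with a standard deviation of 0.02 against 0.10 in Tx. The signals before scaling overlapped, at 1263, 848, 912 and 808 in Tx and 939, 867, 914 and 884 in nonTx livers. In the same arrays the 75th percentile lay between 225 and 330 in Tx and between 274 and 302 in nonTx. With scaling to bright probes and with normexp background correction 0 of the 9 genes were without overlap, and with quantile normalization and scaling to the median 1 was. The Nr2f2 difference was 0.089 with normexp and 0.10 with scaling to bright probes. The 13 sinusoidal and venous endothelial markers had a median difference of 0.03, and their summed scaled signal was 132 to 156 in Tx and 132 to 139 in nonTx livers. For the 13 stellate cell and fibroblast markers the median was 0.03 as well, and the sum 133 to 157 in Tx and 129.6 to 139.8 in nonTx. Pdgfrb, a stellate cell and pericyte receptor gene, was the 1 marker of both lists without overlap, at -0.29 ± 0.11 (SE). All markers of both lists were measured, 0 passed the adjusted test, and their part in the Nr2f2 value was not tested.

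**Figure D2:**
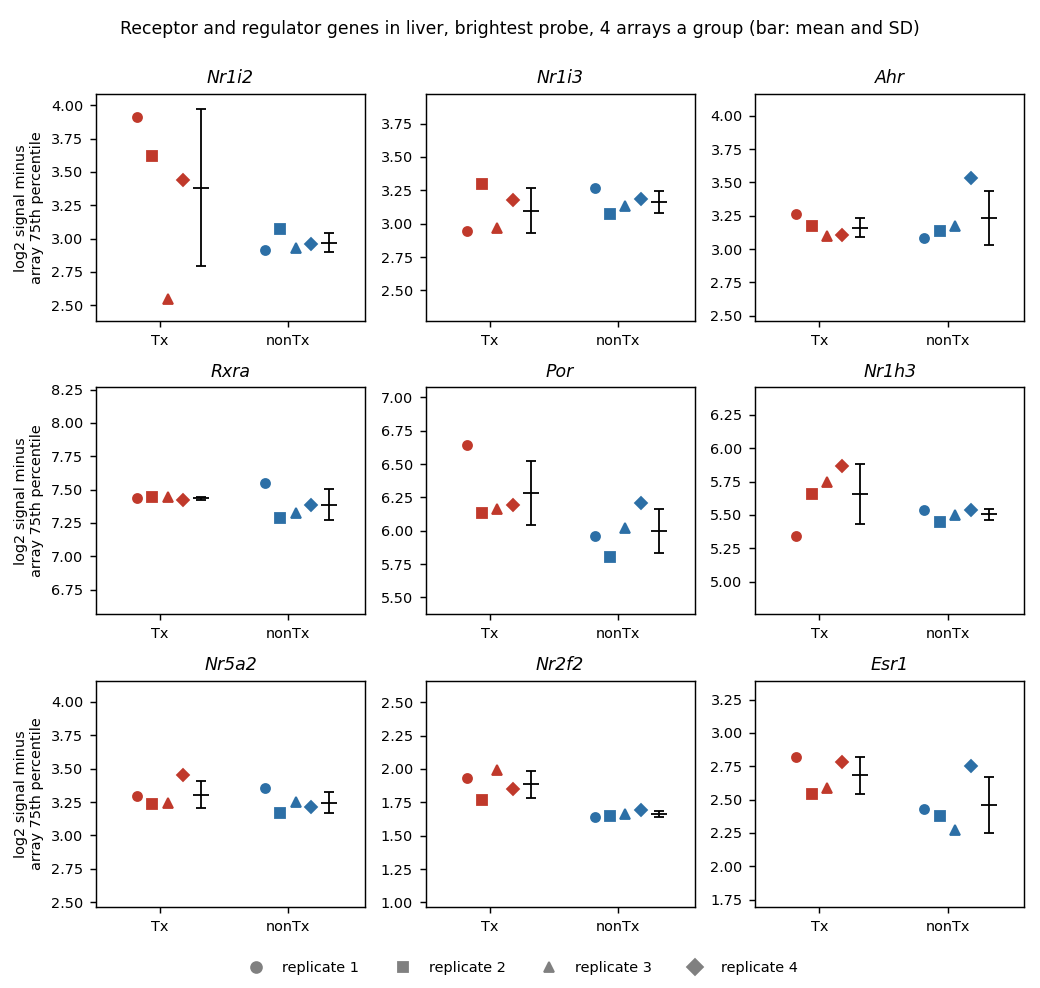
Log2 signal minus the array's 75th percentile (y axis, spanning the same height in each panel) for the brightest probe of each gene in the 4 Tx (red) and 4 nonTx (blue) livers; shapes mark the replicate number, bars the mean and SD of a group. The Nr1i2 panel has the widest Tx spread, the Por panel has Tx replicate 1 above the rest, and the Nr2f2 panel is the only 1 without overlap.

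Taking each gene by its brightest probe, the spread within a group was larger in Tx for 6 of the 9 genes and for 69.7% of all tested genes. The median standard deviation over all genes was 0.21 in Tx and 0.15 in nonTx livers. Ahr, Rxra and Esr1 went the other way, with 0.07, 0.01 and 0.14 in Tx against 0.21, 0.12 and 0.21 in nonTx. Tx replicate 1 held the highest of the 8 values for 3 of the 9 genes, Nr1i2, Por and Esr1, and for 13.3% of all tested genes. Leaving out that array, 5 of the 9 genes and 58.7% of all genes still had the larger standard deviation in Tx.

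**Figure D3:**
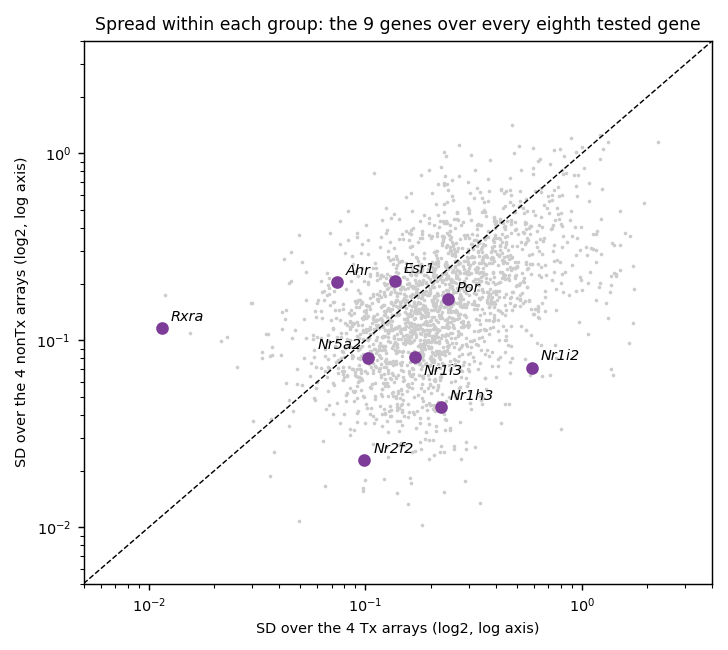
Standard deviation of the log2 signal over the 4 Tx arrays (x axis, log scale) against that over the 4 nonTx arrays (y axis, log scale). Shown are the 9 genes (purple) and every eighth tested gene (grey), each by its brightest probe. The dashed line marks equal spread. Nr1i2 lies at 0.59 in Tx against 0.07 in nonTx, and Rxra at 0.01 against 0.12.

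Over the 8 livers the levels of Por, Esr1 and Nr2f2 had positive correlations with each other. Of the 36 pairs among the 9 genes, Por and Esr1 had the highest Pearson correlation, r = 0.79 (Spearman rho = 0.90, n = 8), and it was 0.78 without Tx replicate 1. Por and Nr2f2 followed with r = 0.70 and Nr2f2 and Esr1 with r = 0.62, which were 0.61 and 0.50 without that array. Other pairs were higher once it was left out: Nr1h3 and Nr2f2 had r = 0.33 over the 8 arrays and 0.83 without it, Nr1h3 and Por -0.14 and 0.70, and Nr1h3 and Esr1 0.22 and 0.68. Nr1i2 and Nr1i3 had r = 0.03 over the 8 arrays, and 0.70 without Tx replicate 1. The lowest value was r = -0.64, between Nr1i3 and Nr2f2. These are descriptions, as all genes share the arrays, their scaling and the split into groups.

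The genes whose pattern over the 8 arrays was most like that of each gene were picked as the highest correlations among all tested genes, so their size supports nothing. For Nr1i2 they were Gba2 (r = 0.95) and Gtf2a2 (0.95), and for Nr1i3 Pyroxd1 (0.95) and Kcnj9 (0.94). Ahr was most like AA986860 (0.97) and 2610002M06Rik (0.94), and Rxra most like Kremen1 (0.98) and Mbnl3 (0.98). For Por they were Atp1b1, a sodium pump subunit gene (0.98), and Pdik1l (0.98), for Nr1h3 Pyroxd2 (0.99) and Yif1a (0.98), and for Nr5a2 9430038I01Rik (0.97) and the Wnt receptor gene Fzd1 (0.97). Nr2f2 was most like Rnasek (0.98) and Mad2l1bp (0.98), and Esr1 most like Pnpla1 (0.98) and D330050I16Rik (0.97). Without Tx replicate 1 the correlations of these 18 pairs lay between 0.91 and 0.99.

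The enzymes and transporters that PXR and CAR switch on leaned towards Tx without passing the test. Of 33 listed target genes 31 were measured, 27 higher and 4 lower in Tx. The median of their differences was 0.18, against 0.03 for all genes, and 0.05 with quantile normalization. By limma 0 had an adjusted p under 0.05; without adjustment 3 were higher at p under 0.05 (8.65% of all genes) and 0 lower (5.25%). These were the cytochrome P450 genes Cyp2c54 (0.40 ± 0.10, SE) and Cyp2b13 (0.36 ± 0.14) and the glucuronosyltransferase gene Ugt2b34 (0.23 ± 0.08), with limma adjusted p = 0.283, 0.346 and 0.317. The best known targets, looked up for their role after the values were seen, differed by less: Cyp3a11, a PXR target, by 0.10 ± 0.12, and Cyp2b10, a CAR target, by 0.10 ± 0.15. Set beside Nr1i2 array by array, the median deviation of the target list from the 8-array mean had the opposite sign in Tx replicates 1 and 3 and in nonTx replicate 4 and the same sign in the other 5 arrays. Tx replicate 1, with the highest Nr1i2 level, had a list median of -0.14, while Tx replicate 3, with the lowest Nr1i2 level, had the highest list median, 0.18. In Tx replicates 2 and 4 the list stood at 0.04 and 0.16, with Nr1i2 above its mean in both.

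The AHR targets were divided in direction and 0 passed the adjusted limma test. Of 8 measured AHR targets 5 were higher and 3 lower, with a median of 0.09; Cyp1a1, the classical AHR target, differed by 0.45 ± 0.18 (SE), Aldh3a1, an aldehyde dehydrogenase gene, by 0.31 ± 0.16 and the glucuronosyltransferase gene Ugt1a6a by -0.35 ± 0.18 (limma adjusted p = 0.357, 0.414 and 0.413). The scaled signal of Cyp1a1 on the log2 scale averaged -2.31 in Tx and -2.75 in nonTx. The list median was 0.25 without Tx replicate 1 and -0.00 without nonTx replicate 1, and it was -0.03 with scaling to bright probes. The 5 measured AHR partners and chaperones were all higher by value, with a median of 0.18, which was 0.031 with quantile normalization and 0.061 with scaling to bright probes. They included Ptges3, the cochaperone p23 (0.24 ± 0.09), and Hsp90ab1, a cytosolic HSP90 gene (0.18 ± 0.08), with limma adjusted p = 0.328 and 0.362. In these 2 the Tx arrays lay wholly above the nonTx arrays, as in 5.11% of all genes. Arnt, the DNA-binding partner of AHR, and Hsp90aa1, the other cytosolic HSP90 gene, named after their values were seen, differed by 0.03 and 0.01, below the median of all genes.

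The genes around POR were higher in Tx by small amounts, and 0 of 12 passed the adjusted limma test. All 12 genes of microsomal electron transfer, haem breakdown and POR-dependent sterol synthesis were higher by value, where 56.3% of all genes were, with a median of 0.19 and a range from 0.08 to 0.82. The median was 0.12 with quantile normalization and 0.075 with scaling to bright probes. Hmox2, the constitutive haem oxygenase gene, differed by 0.28 ± 0.08 (SE) without overlap, Sqle, the squalene epoxidase gene, by 0.82 ± 0.40 and Cyb5b, a cytochrome b5 gene, by 0.23 ± 0.13 (limma adjusted p = 0.295, 0.404 and 0.458). A separation with Tx above was shown by 1 of the 12 genes and by 5.11% of all genes. The list median was 0.28 and 0.27 above the 8-array mean in Tx replicates 3 and 4 but -0.08 in Tx replicate 1, where Por was highest. Over both groups the list median of the differences was 0.30 without Tx replicate 1 and 0.11 without Tx replicate 3.

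Targets of LXR, NR5A2 and the oestrogen receptor lay near the median of all genes, and the sign of each list's median turned with the scaling. Of 16 LXR targets 10 were higher, with a median of 0.06. Smpdl3a, a phosphodiesterase gene, differed by 0.21 ± 0.09 (SE) and Pltp, the phospholipid transfer protein gene, by 0.30 ± 0.14 (limma adjusted p = 0.351 and 0.385). Of 8 NR5A2 targets 4 were higher, with a median of 0.04. Nr0b2, which encodes the corepressor SHP, was lower by value, -0.52 ± 0.20, while Apom, an apolipoprotein gene, differed by 0.15 ± 0.09 (limma adjusted p = 0.346 and 0.469). Of 10 measured oestrogen receptor pathway genes 5 were higher, with a median of -0.01. The cytokine receptor gene Lifr differed by 0.43 ± 0.13 without overlap, the corepressor gene Nrip1 by -0.43 ± 0.16 and Greb1, an oestrogen target in breast cells, by -1.18 ± 0.54 (limma adjusted p = 0.305, 0.328 and 0.384). A separation with Tx above was shown by 1 of these 10 genes and by 5.11% of all genes.

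**Figure D4:**
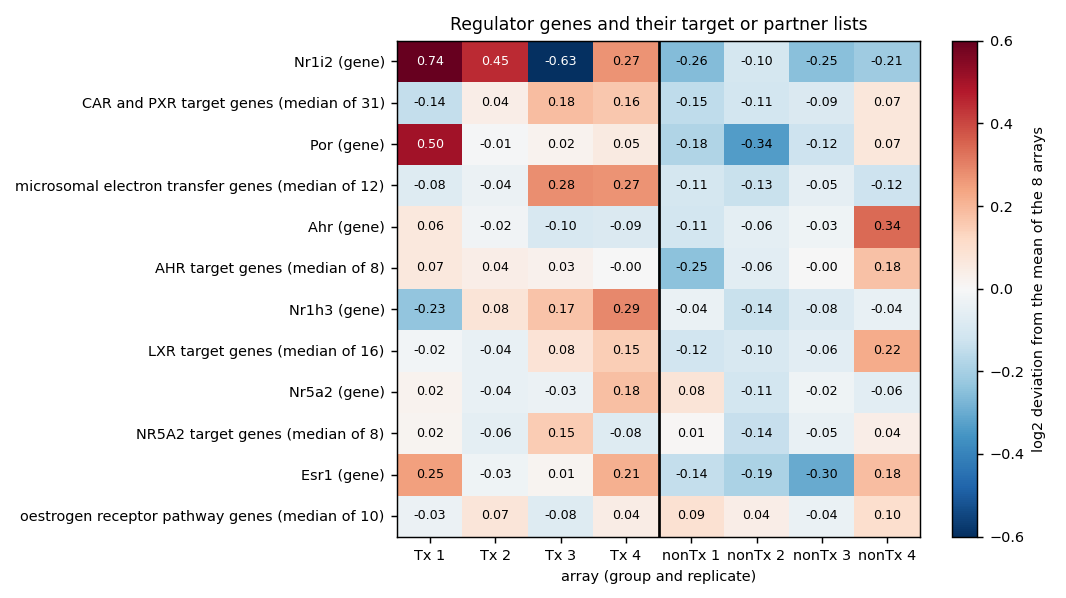
Log2 deviation of each array (columns, Tx then nonTx) from the mean of the 8 arrays for 6 regulator genes and, under each, the median over the measured genes of its target or partner list (colour and printed value). Nr1i2 runs from 0.74 in Tx replicate 1 to -0.63 in Tx replicate 3, where its target list stands at -0.14 and 0.18.

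The rest of the nuclear receptor family was split in direction. Of 37 other receptor genes measured, 17 were higher and 20 lower in Tx, with a median of -0.03, or 0.07 with scaling to the median; by limma 0 had an adjusted p under 0.05, and without adjustment 0 were higher (8.65% of all genes) and 3 lower (5.25%). These 3 were Thra, the thyroid hormone receptor alpha gene (-0.42 ± 0.11, SE, without overlap), Nr5a1, which encodes steroidogenic factor 1 (-0.54 ± 0.19), and Nr0b2, given above (limma adjusted p = 0.283, 0.322 and 0.346). Of 20 coregulator genes 9 were higher and 11 lower, with a median of -0.01, or 0.09 with scaling to the median. The acetyltransferase genes Crebbp and Ep300 differed by -0.49 ± 0.12, without overlap, and -0.33 ± 0.19, and Nrip1 is given above (limma adjusted p = 0.277 for Crebbp and 0.454 for Ep300). A separation with Tx below was shown by 1 of the 37 receptor genes, 1 of the 20 coregulator genes and 2.95% of all genes.

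Markers of several other cell types had medians farther from 0 than that of the 9 genes. The 8 T cell markers had a median of -0.45, with 6 lower, and a summed scaled signal of 20.6 to 34.1 in Tx and 21.5 to 23.6 in nonTx livers. By limma without adjustment 5 of the 8 were lower at p under 0.05 (5.25% of all genes) and 0 higher (8.65%). A separation with Tx below was shown by 3 of the 8 and by 2.95% of all genes. The median deviation of the list from the 8-array mean was -0.36 to -0.09 in Tx and 0.08 to 0.37 in nonTx livers. The 4 measured mesothelial markers had a median of -0.93 and the 5 measured neutrophil markers of 0.56. Kupffer cell markers stood at a median of 0.03 over 11 genes, bile duct markers at -0.26 over 4, B and plasma cell markers at 0.33 over 5, adipocyte markers at 0.33 over 3, exocrine pancreas markers at 0.35 over 3 and erythroid markers at -0.15 over 3. Among these markers Cd79a, Ngp, Adipoq, Plin1, Cfd and Lrrn4 were well above background on none of the 8 arrays. By limma 0 of these markers had an adjusted p under 0.05, and their part in the values of the 9 genes was not tested.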

How the data were processed

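Per the labels, liver RNA was labelled with 1 dye (0.5 ug for each array) and hybridised to 8 Agilent arrays. The deposited intensities are spot signals that Feature Extraction 10.7.1.1 had background-subtracted and spatially detrended, per the file headers. Version 9.1 is named in the submitters' processing notes. The deposited table repeats these intensities and adds the authors' log2 values, which could be rebuilt from the intensities by percentile scaling followed by probe-wise centring, along with the authors' log2 difference and unsigned fold ratio between Tx and nonTx. For the genes described here the table and the scanner files held the same intensities.

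Spots of a probe were averaged, outlier spots were set to missing, and each array's 75th percentile was subtracted on the log2 scale. A probe was tested where 3 or more of the 4 arrays in Tx or in nonTx showed it well above background, 30955 probes for 16495 genes, each gene by its brightest tested probe. Symbols were updated through Entrez IDs. Tx minus nonTx was fitted in R 4.3.3 by limma 3.58.1, using lmFit and a trended eBayes, with Benjamini-Hochberg adjustment over all tested probes and a threshold of 0.05. Single genes were also tested with a two-sided exact permutation test over the 8 arrays, whose smallest p is 0.0286. The scripts were tested on simulated data. The genes described and all lists were chosen with earlier results of these data known. The rule for names took the 9 genes, the 3 genes of each pathway list with the smallest p, and the 2 genes whose pattern over the arrays was most like each of the 9. Some genes that the rule names are not reported here. Promoters and their coordinates came from RefSeq (GRCm38.p6). The headers give the array's build as mm9, so no probe coordinates are given. Alternatives covered background correction (normexp on the median signal), scaling, filters, variance models, a replicate block, probe averaging and each array left out. The slide could not serve as a block, since all arrays shared 1 slide and 1 scan. In both groups the column on the slide matched the replicate number, so the replicate block was also a block by column. Same-numbered arrays of both groups deviated together with correlations between -0.01 and 0.10, so the numbers were not taken to pair the samples.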

Additional observations from a re-analysis of the deposited data

Results flagged for a closer look

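In Por, 1 of the 4 Tx livers stood apart from the rest of its group: the gap between Tx replicate 1 and the next Tx liver took up 0.883 of the range of the group, or 0.45 on the log2 scale, above Dixon's 95% critical value for 4 samples. Por had a scaled signal of 100.01 there, against 70.3 to 73.3 in the other Tx livers. This was 1 of 18 groups examined (9 genes in Tx and nonTx), and chance marks about 1 in 20.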

How the results depend on the processing

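By limma, 0 of the 9 genes passed the adjusted threshold in each of the 21 alternatives run. Nr1i2, Por, Nr1h3, Nr2f2 and Esr1 were higher in Tx in all 21, with log2 differences of 0.24 to 0.69, 0.11 to 0.39, 0.00 to 0.25, 0.09 to 0.32 and 0.06 to 0.32. The other 4 changed direction with the setting. Rxra differed by -0.086 with normexp, -0.119 with quantile normalization and -0.068 with scaling to bright probes, Nr5a2 by -0.028 with quantile normalization and -0.060 with scaling to bright probes. Nr1i3 differed by 0.036 with scaling to the median and 0.049 with the mean of a gene's probes, and Ahr by 0.0297 with scaling to the median. Leaving out 1 array, Ahr ranged from -0.120 to 0.0302, the higher end without nonTx replicate 4.

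The median of all tested genes was 0.03 as reported, 0.133 with scaling to the median, -0.088 with scaling to bright probes (chosen after the data were seen), -0.0068 with quantile normalization and 0.088 without a filter. Relative to it Nr2f2 stood at 0.19 as reported, at 0.19 with quantile normalization and at 0.05 with normexp. The 3 scalings each subtract 1 value per array, so this relative value could not differ among them. The number of probes past the threshold, 0 as reported, was 2 with normexp, 6 with scaling to the median, 1 without a variance trend, 5 with robust variance, 7 with array weights and 1 with a replicate block, and 0 to 188 when 1 array was left out, the highest without Tx replicate 2 and 12 without Tx replicate 3. Among the 9 genes, 0 lay wholly above nonTx with normexp or scaling to bright probes, and 1 to 3 when 1 array was left out. The replicate block changed no other call.

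The median of the 9 genes, 0.15 as reported, was 0.083 with normexp, 0.00099 with quantile normalization, 0.25 with scaling to the median, 0.20 with array weights, 0.032 with scaling to bright probes and 0.081 to 0.165 with 1 array left out. With quantile normalization the list medians were 0.050 for CAR and PXR targets, 0.031 for AHR partners, -0.075 for NR5A2 targets, -0.106 for other nuclear receptors and -0.074 for coregulators. With scaling to the median they were 0.28 for AHR partners, 0.14 for NR5A2 targets, 0.086 for the oestrogen pathway, 0.072 for other nuclear receptors and 0.087 for coregulators. With scaling to bright probes they were 0.061, -0.084, -0.134, -0.148 and -0.134 for the same lists. The oestrogen pathway median was 0.067 when probes had to be well above background on all arrays. With 1 array left out, AHR targets ran from -0.0028 to 0.252 and other nuclear receptors from -0.069 to 0.023. The cause of these shifts was not tested beyond the scaling itself. With 4 arrays a group, the number of arrays limits the precision.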
